A study of Mus musculus with 1790 samples.

Results

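The genes described here were 6 members of the Sox family, Sox1, Sox2, Sox4, Sox5, Sox9 and Sox11, taken from a given list of names, out of 49915 genes with a row in any deposited table and 19 Sox genes looked for. They were followed through the formation of mouse cortical neurogliaform cells (NGCs), a class of GABAergic interneurons of the upper cortical layers. At E14.5, single cells of 2 wild-type regions were profiled in droplets, namely the preoptic area (POA) and the caudal ganglionic eminence (CGE), which both produce interneurons. Also at E14.5, 2 sorts of POA cells were captured on C1 microfluidic chips. The first came from wild-type embryos in which FlashTag, a dye injected into the ventricle, labelled cells dividing at its surface 2 h before collection, and only the 5% brightest cells were kept. The second held tdTOM+/GFP+ cells of Hmx3-Cre; R26tdTOM; Htr3a-GFP embryos, in which tdTOM permanently marks cells that have expressed Hmx3 and GFP reports Htr3a. The strain of the wild-type embryos is open, since the labels name C57BL/6 while the methods name CD1 mice for the FlashTag injections and, in 1 of 2 places, for the droplets.

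After birth, GFP+ cells from upper layers of somatosensory cortex, of mice from the same cross, were sorted with tdTOM (the Hmx3 lineage) or without it from pooled brains at P15 and P30. A further 47 tdTOM+/GFP+ cells, in cortical layers 1 to 6, were patched at P14 to P25 and sequenced. Both Hmx3-Cre and Htr3a-GFP are transgenes on bacterial artificial chromosomes, so the marks follow those transgenes. The animals behind single cells are not named. Each library or sort was therefore 1 sample, no test was possible, and every comparison stands without a replicate check. The 6 genes have rows in each table except that of P15, which holds only Sox5 and Sox9 of them; Sox1, Sox2, Sox4 and Sox11 were not analysed at P15.

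Sox proteins are transcription factors that bind DNA through a high-mobility-group box and bend it. SOX1 and SOX2, of the B1 group, keep neural progenitors dividing and undifferentiated. SOX9, of the E group, supports neural stem cells and later the making of astrocytes. SOX4 and SOX11, of the C group, act in newborn neurons and turn on general neuronal genes. SOX5, of the D group, has no activation domain of its own, works with partner proteins, and is kept in some classes of mature neurons.

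In GRCm38 with GENCODE vM21, Sox2 lies at chr3:34650405-34652461 on the + strand as a single exon within the longer transcript Sox2ot of the same strand. Sox1 is a single exon at chr8:12395295-12400126 on the + strand, inside Sox1ot. Sox9 has 3 exons at chr11:112782224-112787760 on the + strand and overlaps no other gene. Sox4, at chr13:28948919-28953713, and Sox11, at chr12:27334264-27342574, are single-exon genes of the - strand, and an antisense gene, Gm26735, overlaps Sox4. Sox5 spans 953553 bases of the - strand at chr6:143828425-144781977, with 14 annotated transcripts and overlapping genes on both strands. On C1 cells the authors counted unambiguous exonic reads by strand under a strict overlap rule, and for droplets the rule is not given in the sources used here. A read in an exon that Sox1 or Sox2 shares with an overlapping transcript may be lost to both, so their levels are uncertain to that extent. Sox2ot was at 214 CPM in the FlashTag cells and at 315 CPM in the Hmx3 lineage cells.

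The promoters of Sox4 and Sox11 are shown because these 2 genes had the same order of levels along the neuronal series described next, and that of Sox2 because it did not share it. Each is the RefSeq window of 250 bases before to 50 bases after the start in GRCm38.p6, 5′ to 3′ on the strand of the gene: Sox4 at chr13:28953650-28953949, Sox11 at chr12:27342669-27342968 and Sox2 at chr3:34649745-34650044. Capitals mark E-boxes (CANNTG on either strand), the letters read by basic helix-loop-helix proteins.
Sox4: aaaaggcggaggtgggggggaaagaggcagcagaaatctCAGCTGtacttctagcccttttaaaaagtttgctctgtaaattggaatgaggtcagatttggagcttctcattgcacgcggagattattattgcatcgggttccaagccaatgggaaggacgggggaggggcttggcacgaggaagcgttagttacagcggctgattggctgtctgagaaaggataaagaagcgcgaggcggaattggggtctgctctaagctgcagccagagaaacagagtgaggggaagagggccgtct
Sox11: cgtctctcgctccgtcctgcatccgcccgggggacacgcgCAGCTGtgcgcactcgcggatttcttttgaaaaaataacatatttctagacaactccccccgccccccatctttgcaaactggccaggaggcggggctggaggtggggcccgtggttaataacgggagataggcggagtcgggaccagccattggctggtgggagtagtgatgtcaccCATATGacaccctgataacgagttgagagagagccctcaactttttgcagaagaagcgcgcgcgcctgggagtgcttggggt
Sox2: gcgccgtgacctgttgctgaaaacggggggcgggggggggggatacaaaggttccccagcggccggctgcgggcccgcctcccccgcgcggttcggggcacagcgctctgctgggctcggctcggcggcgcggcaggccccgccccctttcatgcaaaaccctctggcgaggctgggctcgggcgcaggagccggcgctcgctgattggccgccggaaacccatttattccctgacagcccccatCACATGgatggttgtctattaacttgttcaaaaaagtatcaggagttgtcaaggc
Sox4 and Sox11 each held CAGCTG, 211 and 210 bases before the start, and Sox11 also held CATATG 32 bases before it. The Sox2 window held CACATG, which began 5 bases before the start and ran over it, and those of Sox1 and Sox5 held no E-box. These starts are those of RefSeq. The Sox2 and Sox11 windows lie wholly before the gene starts given above from GENCODE, so their distances do not refer to those starts. For comparison, 72.3% of the 32851 promoters of the table held at least 1 CANNTG and 16.3% held CAGCTG. Of the 6 members, 5 were matched to a promoter, and Sox9 was the other.

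The first question was how the Sox genes were arranged between progenitors and young neurons in the droplet libraries. Each cell was thinned at random to 3200 UMIs and ordered by its Dcx count minus its Nes count. Nes encodes an intermediate filament of progenitors and Dcx a microtubule protein of migrating neurons. Both set the order and are no result. Cells with more Nes are called the Nes end (282 POA and 467 CGE cells), cells with more Dcx the Dcx end (1115 and 2092), and the others tied (709 and 973). All 2106 POA cells entered, and 583 of 4115 CGE cells were too shallow. Levels are summed counts as CPM, scaled to the total of the group, with exact Poisson 95% intervals after them, which cover counting error only. Log2 folds were taken after adding 10 CPM, and a gene was counted as past 2-fold at a log2 of at least 1 either way with 10 CPM or more in the higher group.

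Sox9 was lower at the Dcx end in both regions. It was at 296 CPM (276 to 318) at the Nes end of the POA, at 160 CPM in tied cells and at 91.7 CPM (86.5 to 97.1) at the Dcx end, a log2 fold of -1.59. In the CGE the levels were 256, 179 and 79.8 CPM, a log2 fold of -1.56. The share of thinned cells with a Sox9 count was 51.4% at the Nes end and 19.5% at the Dcx end of the POA, and 48.6% and 18.1% in the CGE. Both the level and the share of cells were thus lower at the Dcx end, and the intervals did not overlap.

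Sox11 and Sox4 had the opposite order. Sox11 was at 1921 CPM (1868 to 1976) at the Nes end, 2682 CPM in tied cells and 3309 CPM (3277 to 3340) at the Dcx end of the POA, a log2 fold of 0.78. In the CGE it was at 1540, 2505 and 4081 CPM, a log2 fold of 1.40. A Sox11 count was already present in 95.7% of the Nes-end cells of the POA and in 95.1% of those of the CGE, so the share of cells was near its ceiling at both ends and could show little of a difference. Sox4 was at 587 CPM (558 to 618), 762 and 913 CPM (897 to 930) in the POA, a log2 fold of 0.63. In the CGE, Sox4 was at 441, 599 and 909 CPM, a log2 fold of 1.03, just past 2-fold, and it was under that with mean CPM of single cells (0.94) or with the deepest 5% of cells left out (0.99). By share of cells, which is near its ceiling, the CGE fold of Sox11 was 0.07.

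Sox1 and Sox2 differed less along the order. Sox2 was at 238 CPM (219 to 257) at the Nes end, 198 CPM in tied cells and 159 CPM (152 to 166) at the Dcx end of the POA, a log2 fold of -0.55. In the CGE its levels were 252, 255 and 259 CPM, a log2 fold of 0.04, with overlapping intervals at both ends. Sox1 was at 63.3 CPM (54.0 to 73.8) at the Nes end and 48.8 CPM (45.1 to 52.8) at the Dcx end of the POA, a log2 fold of -0.32. In the CGE it was at 65.9 CPM (57.9 to 74.7) and 93.2 CPM (88.2 to 98.3), a log2 fold of 0.44. The POA difference of Sox1 depended on the draw and the measure: it was -0.02 with a second random thinning and 0.15 when shares of cells were compared. Sox5 was at 77.7 and 73.9 CPM in the POA, with overlapping intervals, and at 91.2 CPM (81.8 to 101) and 62.7 CPM (58.7 to 66.9) in the CGE, a log2 fold of -0.48.

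Past 2-fold were thus 0 members higher and 1 lower of 6 in the POA, where 1.08% of all 9419 genes with enough counts were higher and 3.55% lower. In the CGE 2 members were higher and 1 lower, where 5.14% of 9090 genes were higher and 4.39% lower. Other genes of the pathway, from lists chosen with earlier results of these data known, were set beside them. Of 12 Notch and radial glia genes, 8 were lower past 2-fold in each region, and the same 8 in both (Notch1, Notch2, Hes1, Hes5, Hey1, Fabp7, Slc1a3 and Vim). Their list had a median log2 fold of -1.46 in the POA and -1.60 in the CGE, against -0.02 and -0.01 over all genes tested. In the CGE, Hes5, a Notch target that represses neuronal genes, was at 492 CPM at the Nes end and 87.5 CPM at the Dcx end. Of the 13 genes of a list called neuronal, 4 were higher past 2-fold in the POA and 10 in the CGE. Tubb3, a neuronal tubulin that SOX4 and SOX11 are known to activate, was at 860 CPM at the Nes end and 3744 CPM at the Dcx end of the CGE. Tead2, though placed on that list, was lower past 2-fold in both regions, the direction of the Notch and radial glia genes. It was at 244 and 101 CPM at the Nes and Dcx ends of the POA and 285 and 104 CPM in the CGE. No other gene of that list was lower past 2-fold.

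Cells were next divided into 5 equal bins of the same order, with ties set in order by Dcx minus Nes in CPM of the full counts. Sox9 in the POA was at 290, 158, 122, 84.3 and 71.6 CPM from bin 1 (most Nes) to bin 5 (most Dcx), and in the CGE at 258, 149, 117, 69.1 and 52.6 CPM, lower at each of the 4 steps, with overlapping intervals only between bins 4 and 5 of the POA. Sox11 was higher at each step, from 1890 to 3645 CPM in the POA and from 1518 to 4505 CPM in the CGE. Sox4 went from 593 to 1023 CPM and from 436 to 1003 CPM, with 1 step in the POA, from bin 3 (873 CPM) to bin 4 (868 CPM), that was level within the intervals. The differences of these 3 genes were thus spread over the order and did not sit at 1 point of it. Sox2 was at 244 CPM in bin 1 of the POA and between 150 and 187 CPM in the other 4, while its CGE values stayed between 241 and 272 CPM. Sox1 in the CGE was at 63.3 CPM in bin 1 and 101 CPM in bins 4 and 5. Sox5 in the CGE went from 87.6 to 56.8 CPM, but neighbouring bins had overlapping intervals at all 4 steps.

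**Figure D1:**
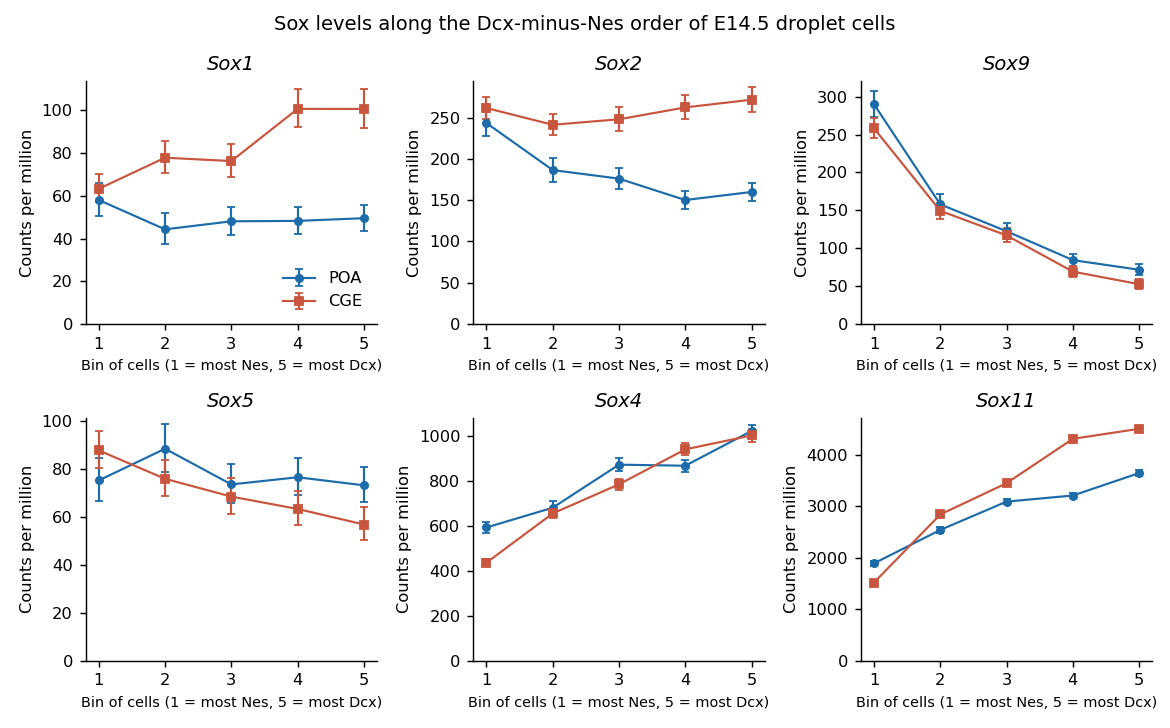
Levels of the 6 Sox genes (CPM, each panel with its own axis from 0) in 5 equal bins of droplet cells ordered from most Nes to most Dcx, for the POA and the CGE; points are summed levels and bars are exact Poisson 95% intervals. Sox9 is lower and Sox11 higher in each later bin of both regions, and the regions part in Sox1 and Sox2, with 49.5 and 160 CPM in bin 5 of the POA against 101 and 272 CPM in that of the CGE.

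Over the 10 points (5 bins in 2 libraries), the levels of Sox4 and Sox11 had a Pearson r of 0.942 on the log2 scale. Sox9 had an r of -0.918 with Sox4 and -0.948 with Sox11, and Sox1 had an r of 0.823 with Sox2. The points share libraries and an order built on Dcx and Nes, so these values are descriptions. The genes most like Sox9 were Vim (0.998), a filament of progenitors, Lfng (0.996), which modifies Notch receptors, and Hes5 (0.994). Those most like Sox11 were Chd3 (0.994), Smarce1 (0.994) and Arid4a (0.990), which encode parts of chromatin complexes, and those most like Sox4 were 9330159F19Rik (0.994), Afap1 (0.991) and Soga3 (0.991). Sox2 was nearest to Nfib (0.980), Ackr3 (0.976) and Rnf13 (0.975), and Sox1 to Tcf4 (0.976) and Tsn (0.970). Sox5 had the weakest neighbours, Nabp2 (0.947), Fkbp4 (0.922) and Zbtb20 (0.920).

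The regions were compared at each end. At the Dcx end, Sox1 was at 48.8 CPM in the POA and 93.2 CPM in the CGE, a log2 fold of -0.81, and Sox2 at 159 and 259 CPM, a log2 fold of -0.67. Sox4 was level, at 913 and 909 CPM, with a log2 fold of 0.01. At the Nes end, the intervals of Sox1, Sox2 and Sox5 overlapped between regions, and Sox4 (log2 0.40), Sox11 (0.32) and Sox9 (0.21) were higher in the POA. Of the 13 neuronal genes, 8 were higher and 5 lower in those POA cells. Only Stmn2 passed 2-fold, at 598 CPM against 172 CPM in the CGE. Tubb3 was at 1317 against 860 CPM and Map2 at 292 against 172 CPM, while Dlx5 was at 68.8 against 102 CPM and Gad2 at 57.5 against 69.9 CPM. At the Dcx end, 3 neuronal genes (Gad1, Gad2 and Dlx5) were lower past 2-fold in the POA and 0 were higher past it. The part of these genes in the Sox differences was not tested. None of the 6 members passed 2-fold at either end, against 3.15% of all genes at the Nes end and 3.49% at the Dcx end. Region and library cannot be told apart, since each region had 1 library, and 12 cell barcodes occurred in both. Over all cells, the region marker Hmx2 was at 50.3 CPM in the POA and 0.763 CPM in the CGE, and Sp8 at 11.1 and 40.4 CPM. Other region markers separated the libraries less, with Nkx2-1 at 384 and 152 CPM, Nr2f2 at 232 and 345 CPM and Prox1 at 51.4 and 65.0 CPM. At the Dcx end, Lhx6 was at 65.8 CPM in the POA and 99.3 CPM in the CGE. Whether the mix of cells in each library had a part in the Sox differences was not tested.

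Markers of other cell types were measured in the same cells. Summed red blood cell genes were at 1274 and 1950 CPM at the Nes and Dcx ends of the POA and 427 and 486 CPM in the CGE. Vascular genes were at 25.3 and 10.2 CPM in the POA and 22.3 and 8.69 CPM in the CGE, and immune genes were at 3.15 CPM or less. Their part in the Sox levels was not tested. No droplet held 5 or more immune or vascular counts, so no cell type that should lack these genes was at hand to read background from. In the 7 POA droplets with 100 or more red blood cell counts, Sox11 was found in 100%, Sox4 in 71.4% and Sox2 in 14.3%.

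The same genes were then followed in the C1 cells of the POA at E14.5, FlashTag cells (352) against Hmx3 lineage cells (418). The 2 sorts also differ in mouse line, possibly in strain, and in label and chip, which cannot be told apart from their age since division. Sox9 was at 391 CPM (387 to 395) in FlashTag cells and 20.9 CPM (20.2 to 21.7) in Hmx3 lineage cells, a log2 fold of -3.70. After thinning to 100000 counts a cell, 80.1% (75.6% to 84.2%, exact Clopper-Pearson 95% interval) of FlashTag cells had a Sox9 count against 20.1% (16.4% to 24.3%) of Hmx3 lineage cells. Plate rows 1 to 20 and 21 to 40 gave 343 and 440 CPM in FlashTag cells against 21.1 and 20.8 CPM in Hmx3 lineage cells, so the sorts stood apart in each set of rows. Sox9 was the 1 member of 6 past 2-fold, and it was lower, where 15.3% of 10438 genes were lower and 7.53% higher.

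Sox11 was at 1846 CPM in FlashTag cells and 3172 CPM in Hmx3 lineage cells, a log2 fold of 0.78. Sox4 was at 687 and 581 CPM, a log2 fold of -0.24, and did not follow Sox11 here. Sox2 was at 277 CPM in FlashTag cells and 181 CPM in Hmx3 lineage cells, a log2 fold of -0.59, and Sox1 at 120 and 74.1 CPM, a log2 fold of -0.63. For both Sox2 and Sox1 the fraction of thinned cells holding a count was about level. It was 75.3% and 76.3% for Sox2 and 48.0% and 48.8% for Sox1, while the summed level was lower in the Hmx3 lineage. Sox5 was at 133 and 120 CPM, yet found in 39.2% of thinned FlashTag cells and 56.9% of Hmx3 lineage cells. Its counts were thus carried by fewer cells in the FlashTag sort. Of the other genes, all 12 Notch and radial glia genes were lower in the Hmx3 lineage, 10 of them past 2-fold. Of the 13 genes of the neuronal list, 11 were higher past 2-fold and 1, Tead2, was lower past it. Fabp7, a radial glia fatty acid carrier, was at 4363 CPM in FlashTag cells and 73.2 CPM in Hmx3 lineage cells.

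Within the FlashTag cells, 187 had more Nes than Dcx, 93 as many of both, and 72 more Dcx, after thinning. Sox9 was at 476, 361 and 199 CPM in these cells, and Sox11 at 1434, 1516 and 3454 CPM, both past 2-fold between the outer groups, where 7.64% of 10662 genes were higher and 10.4% lower with more Dcx. Sox4 was at 540, 724 and 1039.98 CPM, a log2 fold of 0.93, the order seen in the droplets. Sox5 (167, 104 and 79.1 CPM) and Sox1 (124, 152 and 64.4 CPM) were lower with more Dcx, by log2 folds of -0.99 and -0.85, and Sox2 was at 258, 334 and 249 CPM. Among the Hmx3 lineage cells, 11 had more Nes than Dcx and 406 more Dcx. Sox9 was at 95.4 and 18.8 CPM (log2 -1.87) and Sox2 at 438 and 172 CPM (log2 -1.30) in these, both past 2-fold and lower with more Dcx, where 14.1% of 9671 genes were lower and 24.7% higher. Sox4 had the opposite order to that of the FlashTag and droplet cells, at 1131 and 564 CPM (log2 -0.99), and Sox11 was at 2882 and 3179 CPM (log2 0.14). The 11 cells are few, and among them a single cell held 45.1% of the Sox4 counts and a single cell 77.6% of the Sox5 counts.

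**Figure D2:**
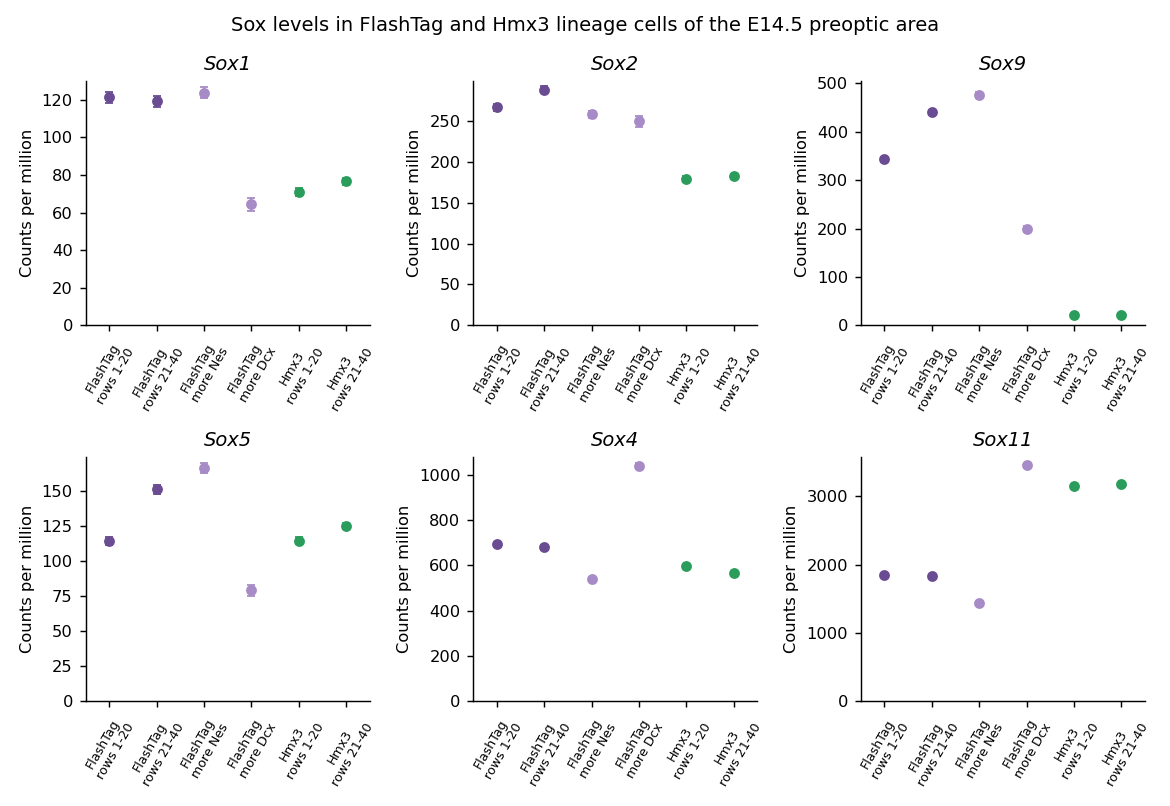
Levels (CPM, each panel with its own axis from 0) of the 6 Sox genes in C1 cells of the POA at E14.5, with plate rows 1 to 20 and 21 to 40 of each sort and the FlashTag cells with more Nes or more Dcx as points; bars are exact Poisson 95% intervals. Sox9 is at 343 and 440 CPM in the FlashTag rows against 21.1 and 20.8 CPM in the Hmx3 lineage rows, and FlashTag cells with more Dcx are at 199 CPM of Sox9 and 3454 CPM of Sox11.

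The members were also read in pairs in the same thinned cells. Counts of both Sox4 and Sox11 were found in 90.9% of FlashTag cells and 98.8% of Hmx3 lineage cells. Counts of both Sox2 and Sox9 were found in 62.2% of FlashTag cells and 16.7% of Hmx3 lineage cells. The products of the single-gene shares were 91.0% and 98.8% for Sox4 with Sox11 and 60.3% and 15.3% for Sox2 with Sox9. The shares with both genes were thus close to what the single shares give without any link between the genes. Across cells of 1 sort, which share a library and are no replicates, Spearman's rho of Sox9 with Sox11 was -0.32 in FlashTag cells and -0.01 in Hmx3 lineage cells. That of Sox4 with Sox11 was 0.35 and 0.22.

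Marker lists bore on what the sorts held after the authors had taken non-GABAergic clusters out of both. Progenitor markers summed to 8765 CPM in FlashTag cells and 322 CPM in Hmx3 lineage cells. A list of Tubb3, Stmn2, Gad1, Gad2, Dlx5 and Dlx6 summed to 709 and 4003 CPM. Most of it came from the neuronal genes Tubb3 (447 and 1692 CPM) and Stmn2 (178 and 1552 CPM). Of its other genes, Gad1 was at 24.9 and 156 CPM and Gad2 at 46.8 and 536 CPM. Astrocyte markers, some of which radial glia also express, were at 338 and 48.5 CPM, vascular markers at 57.1 and 1.92 CPM, and glutamatergic markers at 19.7 and 35.7 CPM. Hmx3 itself was at 0.345 CPM and Hmx2 at 0.568 CPM in FlashTag cells, against 29.8 and 134 CPM in the Hmx3 lineage, so these cells held almost no counts of the genes that mark the lineage. The part of these differences in the Sox levels was not tested.

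Levels in tdTOM+ cells were set beside each other across ages, over the genes that the tables share, since the tables were filtered separately. Over 16384 genes, Sox11 was at 3199.57 CPM at E14.5 (418 cells) and 66.9 CPM at P30 (301 cells), 47.9-fold lower. Sox4 was at 586 and 64.9 CPM, 9.04-fold lower, Sox2 at 182 and 106 CPM, 1.72-fold lower, and Sox1 at 74.8 and 58.3 CPM, 1.28-fold lower. Sox4 and Sox11 were thus far lower at P30 than at E14.5, and Sox1 and Sox2 differed by less than 2-fold. Over the 11449 genes of all 3 tables, Sox5 was at 148, 132 and 207 CPM at E14.5, P15 and P30, and Sox9 at 25.8, 84.1 and 35.5 CPM. Of the 6 members, Sox5 was the one with its highest level at P30. Age cannot be told apart from the dissected tissue and the collection, POA in the embryo and cortex after birth.

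**Figure D3:**
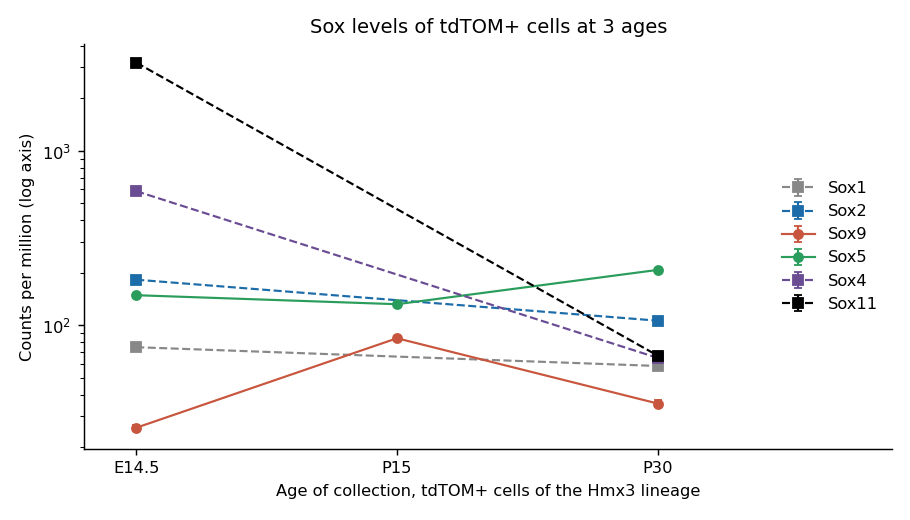
Levels (CPM over the genes shared by the tables, log axis) of the Sox genes in tdTOM+ cells at E14.5, P15 and P30, with exact Poisson 95% intervals as bars; 4 genes have no row at P15, and dashed lines join their other points. Sox11 and Sox4 are lowest at P30, at 66.9 and 64.9 CPM, and Sox5 is at 148, 132 and 207 CPM.

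The last comparison was between interneuron subtypes after birth, by the label that the authors gave each cell. These labels came from a classifier run on the same counts and are not independent of the levels. Core NGCs were tdTOM+ cells labelled Dock5 or Lsp1, the 2 molecular types of NGC (69 cells of P15 and 111 of P30). The tdTOM- cells of any other label (89 and 96) served as non-NGCs. Levels at each age are on the total of that age's table. Counts of 1 gene often sit in few C1 cells, so Poisson intervals are too narrow here. Sox5 was higher in NGCs at both ages, with 164 against 67.7 CPM at P15 (log2 1.17) and 155 against 63.3 CPM at P30 (log2 1.17). A Sox5 count was found in 70.6% of thinned NGCs and 41.2% of thinned non-NGCs at P15, and in 60.9% and 36.8% at P30. These differences were of 1.26 and 1.07 log2 in the 2 sets of plate rows at P15 and of at least 1.16 in both sets at P30. Over whole sorts, all tdTOM+ against all tdTOM- cells of any label and inconclusive cells included, they were 0.61 and 1.00. Both members with a row at P15 passed 2-fold, where 13.8% of all genes did, and Sox5 was the 1 of 6 at P30, where 14.3% did.

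By subtype, Sox5 at P15 was at 194 CPM (186 to 203) in tdTOM+ Dock5 cells and 132 CPM in tdTOM+ Lsp1 cells. Over both sorts, cells with other Lamp5 labels were at 141 CPM, Vip cells at 55.2 CPM and Sncg cells at 4.25 CPM. At P30 the levels were 159 CPM in Dock5, 146 CPM in Lsp1, 202 CPM in other Lamp5, 70.0 CPM in Vip and 7.14 CPM in Sncg cells. Sox5 in the other Lamp5 cells thus overlapped Lsp1 cells in its interval at P15 and was above both NGC types at P30, and it was intermediate in Vip cells and lowest in Sncg cells at both ages. Single labels within the Vip class spread widely, with Vip Pygm C1ql1 cells at 158 CPM at P15 and 241 CPM at P30, and Vip Crispld2 Kcne4 cells at 25.8 and 0.472 CPM. These groups are small, with 11 and 8 cells of the first label and 13 and 8 of the second at P15 and P30. The Sncg group held 12 and 27 cells. In tdTOM- cells labelled Lsp1, Sox5 was at 125 CPM at P15 and 112 CPM at P30, the latter below the tdTOM+ cells of that label.

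**Figure D4:**
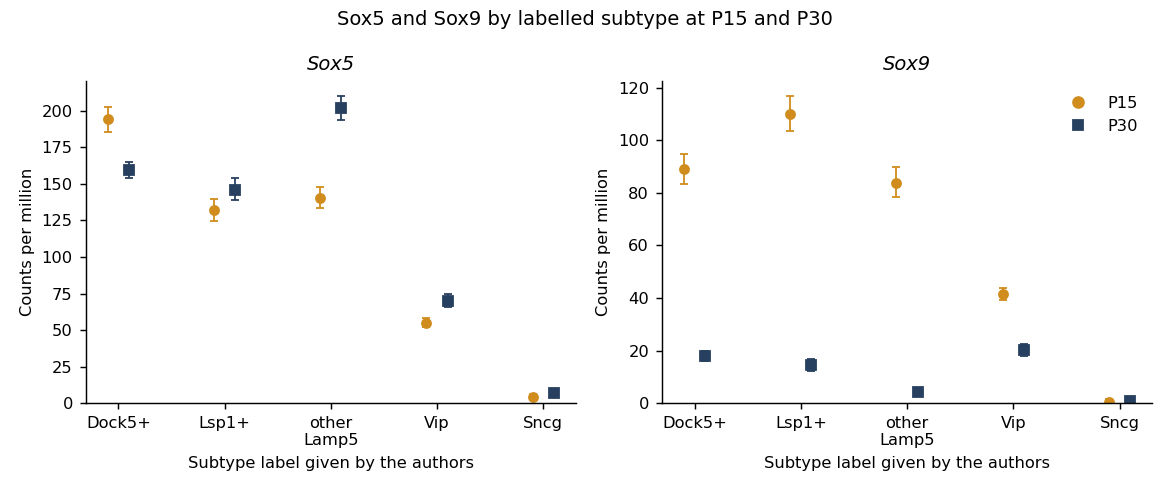
Levels (CPM) of Sox5 and Sox9 by subtype group at P15 and P30, with exact Poisson 95% intervals as bars. Dock5 and Lsp1 points are tdTOM+ cells and the others are cells of both sorts. Sox5 is between 132 and 202 CPM in Dock5, Lsp1 and other Lamp5 cells and at 4.25 and 7.14 CPM in Sncg cells, and Sox9 at P15 is between 41.5 and 110 CPM in all groups but Sncg.

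Sox9 in NGCs and non-NGCs was at 99.0 and 38.1 CPM at P15 (log2 1.18) and at 16.8 and 9.70 CPM at P30 (log2 0.44). A count was found in 47.1% and 31.8% of thinned cells at P15, and in 11.8% and 7.37% at P30. The P15 value was uneven over the plate rows: rows 1 to 20 gave 53.9 against 49.2 CPM and rows 21 to 40 gave 154 against 32.0 CPM, so only the latter rows showed a difference past 2-fold. At P30, 1 cell held 81.7% of the Sox9 counts of the non-NGCs, and without the largest cell of each group the fold was 0.96. The astrocyte genes Aqp4 and Gja1 were at 0 in both groups at P15, while the astrocyte list as a whole was at 395 and 506 CPM, nearly all from Slc1a2 (390 and 506 CPM). The small rest of the sum in NGCs came from other genes of that list. Other genes that glia express were higher in the NGCs along with Sox9, with Slc1a3 at 23.5 and 0.188 CPM, Hes1 at 33.6 and 4.96 CPM and Vim at 9.24 and 0.451 CPM, and their part in the Sox9 difference was not tested.

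The other members could be read at P30 only. Sox11 was at 41.0 CPM in NGCs and 71.0 CPM in non-NGCs, Sox4 at 70.1 and 47.5 CPM, Sox2 at 89.0 and 67.3 CPM, and Sox1 at 53.8 and 47.2 CPM, none past 2-fold. The direction turned for Sox4 over whole sorts (log2 -0.03) and by share of cells (-0.09), for Sox1 by mean CPM of single cells (-0.29 against 0.16) and for Sox2 in plate rows 1 to 20 (-0.09 against 0.36). By label, over both sorts, Sox11 was at 106 CPM in Vip cells, 43.7 CPM in Sncg cells and 38.4 CPM in other Lamp5 cells. In Vip Lect1 Oxtr cells, however, 91.5% of the Sox11 counts came from 1 cell. Sox2 in non-NGCs was at 100.06 CPM in plate rows 1 to 20 and 33.5 CPM in rows 21 to 40.

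Between the 2 NGC types, 0 of 2 members passed 2-fold at P15, where 19.3% of all genes did, and 0 of 6 at P30, where 19.4% did. The log2 fold of Sox5 in Dock5 over Lsp1 cells was 0.52 at P15 and 0.12 at P30, but it was -0.22 and 1.52 in plate rows 1 to 20 and 21 to 40 at P15 and -0.27 and 0.44 at P30, so its direction was not settled. At P30, Sox1 was at 39.5 CPM in Dock5 and 81.6 CPM in Lsp1 cells, a log2 fold of -0.89, and Sox11 at 32.4 and 57.6 CPM, a log2 fold of -0.67. Both differences sat in one set of rows, with -0.22 and -1.41 for Sox1 and -1.45 and 0.18 for Sox11 in rows 1 to 20 and 21 to 40, and the direction of Sox11 turned between them. Sox2 was at 98.2 and 71.1 CPM and Sox4 at 71.0 and 68.3 CPM. In the patch-seq cells (20 Dock5, 27 Lsp1), Sox9 was at 9.43 and 54.5 CPM and Sox4 at 42.4 and 101 CPM, both past 2-fold and lower in Dock5, where 18.3% of all genes passed it in either direction. The deepest Lsp1 cell held 30.0% of the summed Lsp1 counts, and without it Sox9 was at 47.5 CPM (log2 -1.57) and Sox4 at 83.2 CPM (log2 -0.83), no longer past 2-fold, where 16.2% of genes were. Sox5 was at 37.6 and 43.2 CPM and Sox1 at 11.5 and 10.7 CPM, so the P30 difference of Sox1 was not seen. The P30 fold of Sox11 kept its direction in 11 of 13 alternative settings. Markers of other cells differed in the same patched cells, with oligodendrocyte genes at 1264 CPM in Dock5 and 5975 CPM in Lsp1 cells and astrocyte genes at 408 and 914 CPM. Their part in the Sox9 and Sox4 values was not tested.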

How the data were processed

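Single-cell RNA profiles of mouse interneurons and their progenitors were analysed. The authors aligned reads to mm10 (GRCm38) with STAR or Cell Ranger, removed duplicates by UMI (UMI-tools on C1 cells), counted exonic reads per gene and filtered cells by genes, UMIs and mitochondrial reads; the versions of STAR and UMI-tools are not given in the sources used here. The deposited values were raw counts per gene and cell. The authors took non-GABAergic clusters out of the droplet cells and out of both C1 sorts of E14.5. The droplet table of the CGE holds more cells than the study's methods state as recovered, and that of the POA fewer. Doublets of C1 cells were excluded by the authors from images of the wells; no doublet caller was run here, and leaving out the top 5% of droplets by UMIs was an alternative.

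Summed counts of each group were divided by its total (CPM, exact Poisson 95% intervals), and thinned cells with a count were given as shares (exact Clopper-Pearson 95% intervals). Cells were thinned to 3200 UMIs (droplets) or 100000 counts (C1, with 14 shallower cells at P15 and 14 at P30 left out of shares). Median depth was 7574 UMIs in POA and 6275 in CGE droplets, 283979 counts in FlashTag and 356990 in Hmx3 lineage cells. Folds were taken as log2(CPM + 10). Groups came from the deposited labels. Subtype comparisons leave out inconclusive cells. The number of unused value columns was 0.

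The members and lists were chosen with earlier results of these data known. Named genes were the 6 members in every comparison, the other Sox genes as a list, Notch and radial glia genes and neuronal genes as counts past 2-fold, and for each member the 3 genes with the highest Pearson r over 10 points among genes of at least 50 CPM in 1 point; some items are not reported here. The sums and folds were tested on simulated data. Scripts ran under pandas 2.3.3, scipy 1.17.1, numpy 2.4.6 and Python 3.11.15, with plots by matplotlib 3.10.9 and gene models of GENCODE vM21. Alternatives were 1 or 100 CPM added, mean CPM of single cells, shares of cells, mitochondrial genes left out, other filters, orders, thinning draws and sets of cells, plate rows, and patch-seq cells.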

Additional observations from a re-analysis of the deposited data

Results flagged for a closer look

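Sox1 had opposite signs along the order in the 2 regions. Its log2 fold between the Dcx end and the Nes end was -0.32 in the POA and 0.44 in the CGE, a difference of 0.76, and the counting intervals of both folds excluded 0. The difference was not tested, since each region is 1 library. With a second random thinning the POA value was -0.02, and by share of cells it was 0.15, so the sign in the POA was not settled.

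Sox9 had opposite signs between the NGC types at the 2 ages. Its log2 fold in Dock5 over Lsp1 cells was -0.28 at P15 and 0.19 at P30, a difference of 0.47, which was not tested. The P15 direction turned between plate rows, with -1.56 in rows 1 to 20 and 0.54 in rows 21 to 40, so the sign at P15 was not settled either. One cell held 28.1% of the Sox9 counts of the Dock5 cells and 24.0% of those of the Lsp1 cells at P15, and 32.8% and 43.7% at P30.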

How the results depend on the processing

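Of 112 alternative counts of members past 2-fold, 90 were within 1.5 times the main count and 22 were not. Along the POA order the count was 2 with an order on the log scale (Sox11 added) and 0 for tied cells against the Nes end. Along the CGE order it was 1 with 100 CPM added (Sox11), 1 by share of cells (Sox9) and 0 for tied cells. For NGCs against non-NGCs at P15 it was 0 with 100 CPM added, 0 by share, 0 over whole sorts, 1 by mean CPM (Sox9) and 1 in plate rows 1 to 20 (Sox5). At P30 it was 0 with 100 CPM added, 0 by share and 2 in rows 21 to 40 (Sox2, Sox5). For Dock5 against Lsp1 cells at P15 it was 1 in rows 1 to 20 (Sox9, lower), 1 in rows 21 to 40 (Sox5) and 1 in patch-seq cells with or without the deepest Lsp1 cell (Sox9, lower). At P30 it was 1 with 1 CPM added (Sox1), 2 in rows 1 to 20 (Sox2, Sox11), 1 in rows 21 to 40 (Sox1) 2 in patch-seq cells (Sox9, Sox4) and 1 without the deepest Lsp1 cell (Sox9). The causes were not tested. Sox9 was lower past 2-fold along the order in 13 of 14 alternatives in the POA and 12 of 14 in the CGE. Leaving out droplets with 2 or more marker counts of other cell types, haemoglobin genes aside, and leaving out the deepest patch-seq Lsp1 cell were added after seeing the data. The P15 table has no mitochondrial rows, so that alternative was not run there. Of 580 alternative folds of single members, 369 lay within the counting interval of the main value. No paired analysis was possible because each group is 1 sample and no replicate numbers are given. Levels of a few CPM rest on few cells, and the depth limits what can be said of them.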

Other observations

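Other Sox genes, read as a list, held further differences. Along the droplet order Sox21, a B2 gene known to oppose the B1 genes, was lower past 2-fold at the Dcx end of both regions (log2 -1.01 in the POA, -1.15 in the CGE), and Sox3 and Sox8 had log2 folds of -1.03 and -1.42 in the CGE and -0.20 and -0.86 in the POA. At E14.5 Sox21 was at 110 CPM in FlashTag cells and 10.4 CPM in Hmx3 lineage cells, and Sox8 at 17.8 and 0.350 CPM. Sox6, a D gene needed for the maturation of interneurons of the medial ganglionic eminence, was at 53.9 CPM at the Dcx end of the POA and 126 CPM at that of the CGE. Sox14 was at 15.2 CPM at the Dcx end of the POA and 0.695 CPM in the CGE.

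After birth, Sox8 was at 0.172 CPM in NGCs and 28.2 CPM in non-NGCs at P30 and at 0 and 12.1 CPM at P15. Sox12, the other C gene, was at 67.9 CPM in NGCs and 32.2 CPM in non-NGCs at P15 and at 29.2 and 49.0 CPM at P30, so its direction was not the same at the 2 ages.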
